A study of Mus musculus with 4 samples.

Results

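The relaxin family genes described here are the ligand genes Insl3 and Rln1 and the receptor genes Rxfp1 and Rxfp2. They were taken by symbol from the deposited table and are 4 of its 21958 genes. They were selected on their read counts in these same 4 libraries, so their values are given as a description, without a test. The series compared ovaries of ++Oxtr mice, which overexpress the oxytocin receptor (genotype tg, replicates 3 and 4), with ovaries of wild-type mice (WT, genotype wt, replicates 5 and 6). All females were in diestrus, and the labels used here give no age, strain or promoter of the transgene. Ovary is the labelled tissue of all 4 libraries, although the text on RNA extraction speaks of white adipose tissue.

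Relaxin peptides are relatives of insulin that are cut from longer precursors and act on G protein-coupled receptors. RXFP1 is the receptor of relaxin, which loosens connective tissue of the reproductive tract in pregnancy and which rodents make in the corpus luteum. RXFP2 is the receptor of INSL3, a product of theca cells in the ovary and of Leydig cells in the testis. Both receptors carry a large leucine-rich repeat domain outside the cell and signal largely through cyclic AMP.

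Total counts ran from 15229810 to 16517764 per library, over 17135 to 17365 genes with at least 1 count. Oxtr was at 109 and 161 CPM (counts-per-million, TMM-scaled to the library's size) in ++Oxtr, against 29.2 and 55.5 CPM in WT, so both ++Oxtr libraries were higher, as labelled. Its log2 difference was 1.68 ± 0.39 (SE), and the adjusted p was 1 by edgeR's quasi-likelihood test and 0.00639 by DESeq2. All 9 oocyte and all 8 granulosa cell markers were detected in each library. Some libraries stood apart. ++Oxtr replicate 3 had 201 CPM over 6 oviduct epithelium markers, and ++Oxtr replicate 4 had 3252 CPM, against 2634 and 1229 CPM in WT replicates 5 and 6. Ovgp1 made up 7.90% and 79.2% of that sum in ++Oxtr replicates 3 and 4, and 75.0% and 47.4% in WT replicates 5 and 6. WT replicate 6 had 2950 CPM over 7 luteal markers, where the 3 other libraries had 338 to 630 CPM. Adipocyte markers were at 1177 and 817 CPM in ++Oxtr, against 131 and 145 CPM in WT, summed over 8 genes.

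Of the 4 genes, only Rxfp1 was found at more than 20 counts in any library, and its level in ++Oxtr spanned a 28.5-fold range. Insl3 and Rxfp2 had 5 to 20 counts in every library, and Rln1 had no counts. For no member did the ++Oxtr libraries both lie on the same side of both WT libraries. Over the 15311 genes tested, 14.5% had both ++Oxtr libraries above both WT libraries and 11.7% had both below. In edgeR's quasi-likelihood test with Benjamini-Hochberg adjustment, 0.0% of genes were called higher and 0.0% lower at an adjusted p under 0.05. At an unadjusted p under 0.05 edgeR had 324 genes higher (2.12%) and 69 lower (0.451%), and DESeq2 called 67 higher (0.396%) and 3 lower (0.0177%) of 16906 after adjustment. The filter on low counts kept 3 of the 4 members, leaving out Rln1. Whether each library is a separate animal is not stated, so the spread behind every p-value may be partly or wholly technical.

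**Figure D1:**
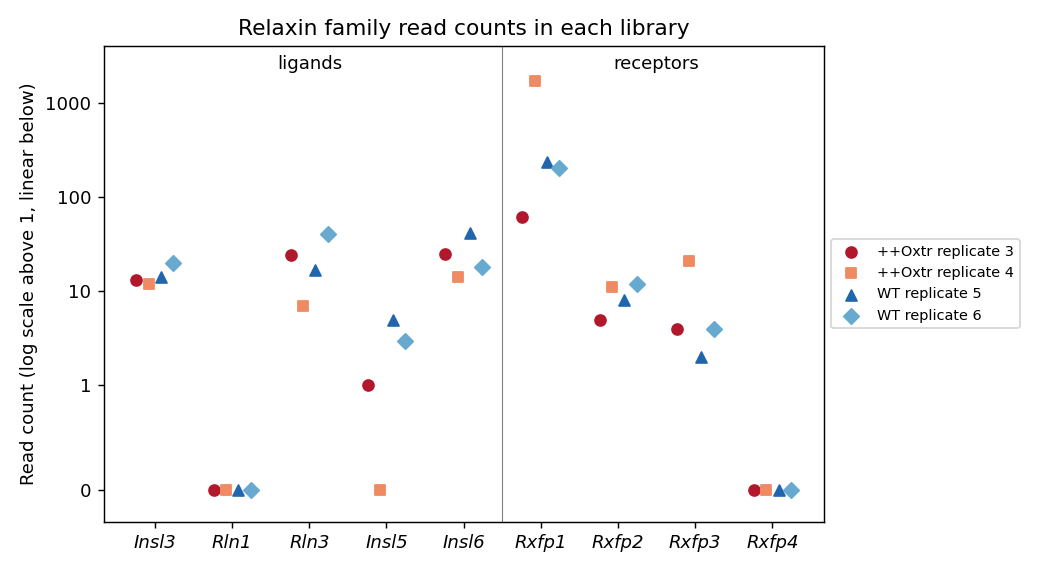
Read counts (vertical axis, log scale above 1) of the 9 relaxin family genes in each library, ligands at left and receptors at right, with 1 point per library. Rxfp1 runs from 62 to 1715 counts within ++Oxtr, the other detected genes stay at 41 counts or fewer, and Rln1 and Rxfp4 have 0.

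Insl3 needs its sequence context before its values, because it lies within another gene. In the deposited table Insl3 (ENSMUSG00000079019) spans 72141858 to 72143219 on the plus strand of chromosome 8. Jak3, which encodes a kinase of cytokine receptors, spans 72128940 to 72143219 on the same strand and so ends at the same base. In GENCODE M21 (GRCm38) Insl3 has 2 exons with 623 bases, and 404 of them, the whole of exon 2, are also exon bases of Jak3. These bases include 194 of the 369 coding bases of Insl3, and they are 64.8% of its exon bases but 7.55% of those of Jak3. Of 5 annotated Jak3 transcripts, 2 reach into this exon. Of the 21850 table genes found in GENCODE M21, 1.42% share at least this part of their exons with another table gene on the same strand. The 8 other relaxin family genes share no exon base in this way.

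The junctions that lead into the shared exon show what tells the transcripts apart. Each line holds 15 bases of the transcript's own preceding exon in lower case, then the first 15 bases of the shared exon in capitals (GENCODE M21, plus strand of chromosome 8, GRCm38).
Insl3: tggagacccgggaccGGGAGCTGCTGCAGT
Jak3: cagccaggggcgagaGGGAGCTGCTGCAGT
The own part of Insl3 is chr8:71689418-71689432, that of Jak3 is chr8:71688148-71688162, and the capitals are chr8:71690172-71690186. A read that lies wholly in the shared exon cannot be told apart between the genes. How such reads were counted is not given in the sources used here, so the counts of Insl3 are uncertain.

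**Figure D2:**
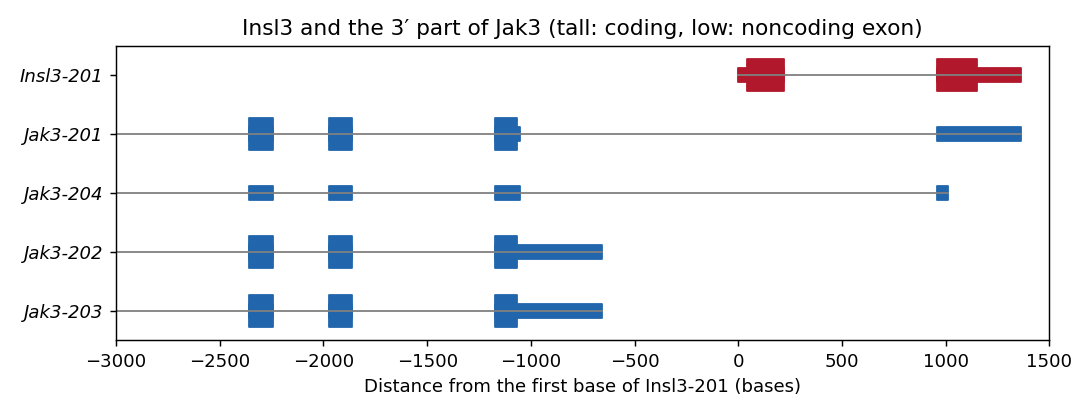
Exons of Insl3 (red) and of the 3′ part of 4 Jak3 transcripts (blue) in GENCODE M21, by distance in bases from the first base of Insl3, with coding parts drawn tall. The 404-base last exon of Insl3 coincides with the last exon of Jak3-201, and Jak3-204 enters it too.

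Insl3, the theca cell ligand, had 13 and 12 counts in ++Oxtr replicates 3 and 4, against 14 and 20 counts in WT replicates 5 and 6. On the CPM scale the levels were 0.842 and 0.801 in ++Oxtr and 0.833 and 1.26 in WT. The groups overlapped, since ++Oxtr replicate 3 lay above WT replicate 5, and the highest level of all was that of WT replicate 6. The means were 0.822 ± 0.0287 CPM in ++Oxtr and 1.04 ± 0.299 CPM in WT (SD, n = 2 each). Summed over each group there were 25 and 34 counts, a ++Oxtr to WT ratio of 0.792 with a 95% interval of 0.453 to 1.37 (exact conditional binomial, counting error only). At this depth the counts alone did not settle the direction of a difference, and the interval leaves out the spread between libraries. In whole ovary, fewer cells of a type and less transcript per cell cannot be told apart.

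The level of Insl3 was low beside that of other theca genes. Its deposited FPKM (the count scaled to gene length and library total) was 1.37 and 1.26 in ++Oxtr, against 1.36 and 1.99 in WT. If only the 219 bases of exon 1 that no Jak3 exon covers had been open to counting, the same reads would give 3.90 and 3.58 in ++Oxtr and 3.87 and 5.67 in WT on the same scale. Cyp17a1, the theca enzyme that leads to androgens, was at 27.4 and 35.4 FPKM in ++Oxtr and at 20.8 and 109 FPKM in WT. Thus Cyp17a1 was above Insl3 in all 4 libraries by either measure of length.

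Theca and interstitial markers, 9 genes, summed to 3962 and 3179 CPM in ++Oxtr, against 3397 and 11150 CPM in WT. The genes of this list did not move together, since 6 were highest in WT replicate 6 and Nr2f2, Ptch1 and Gli1 were highest in ++Oxtr replicate 3. WT replicate 6 was also the highest library for all 7 luteal markers, which summed to 2950 CPM there. The part of luteal cells in the theca and interstitial sum was not tested. Cyp11a1, which starts steroid synthesis from cholesterol, had a CPM ratio of WT replicate 6 to WT replicate 5 of 14.1. That ratio was 6.01 for Star, which brings cholesterol into mitochondria, and 5.41 for Cyp17a1. It was 7.70 for Fdx1, 3.64 for Aldh1a1 and 2.03 for Hsd3b1, but 0.869 for Nr2f2, 0.909 for Ptch1 and 0.587 for Gli1, the last 2 of which belong to hedgehog signalling. For Insl3 the ratio was 1.51, with a 95% counting interval of 0.724 to 3.23, which holds ratios from both sides of 1. Jak3 had 467 and 430 counts in ++Oxtr and 480 and 380 counts in WT. Per 1000 Jak3 counts there were 27.8 and 27.9 Insl3 counts in ++Oxtr, and 29.2 and 52.6 in WT. The part of Jak3 reads in the Insl3 counts was not tested. Of the genes on each side, Unc13a was at 11.9 and 9.42 CPM in ++Oxtr and 9.04 and 8.60 CPM in WT, and B3gnt3 at 9.003 and 10.5 CPM in ++Oxtr and 9.22 and 7.28 CPM in WT.

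The region before the Insl3 start is shown because the nuclear receptor NR5A1 (SF-1), whose gene was measured here, is a known activator of the Insl3 promoter in mouse Leydig cells and binds CAAGG motifs. It is the RefSeq promoter of Insl3, chr8:71689002-71689301 on the plus strand of GRCm38.p6, with 250 bases before the start site and 50 after it, 5′ to 3′, and with CAAGGTC and CAAGGCC in capitals.
Insl3: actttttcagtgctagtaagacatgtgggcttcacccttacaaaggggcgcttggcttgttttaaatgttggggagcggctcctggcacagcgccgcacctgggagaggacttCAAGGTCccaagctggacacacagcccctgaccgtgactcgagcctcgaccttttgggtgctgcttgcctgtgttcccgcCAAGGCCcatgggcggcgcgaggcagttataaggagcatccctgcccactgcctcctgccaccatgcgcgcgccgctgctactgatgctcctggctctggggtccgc
Both motifs were searched on both strands, and each was found once, on the plus strand, without overlap between them. They lie 137 to 131 and 57 to 51 bases before the RefSeq start, 71689252. The first base of Insl3 in GENCODE M21, from which the exon map counts, is 38 bases upstream, at 71689214, and from there the motifs lie 99 to 93 and 19 to 13 bases before the start. CAAGGTC occurs in 3.96% and CAAGGCC in 6.19% of the 32851 RefSeq promoters of this length, and 0.706% hold at least 2 matches. Of the 4 members, 3 had a RefSeq promoter entry (Insl3, Rln1 and Rxfp2), and neither motif was found in the windows of Rln1 and Rxfp2. A match of letters is not shown to be a site in use.

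Nr5a1 was at 157 and 116 CPM in ++Oxtr, against 144 and 296 CPM in WT. It was highest in WT replicate 6, as were all 7 luteal markers and, on 20 counts, Insl3. Its log2 difference was -0.68 ± 0.39 (SE), and its adjusted p was 1 by edgeR. Of the 12 regulators of Insl3 transcription on the list, all were tested and 0 passed in either direction, with a median log2 difference of -0.03. Gata4, a zinc finger factor of gonadal somatic cells, was at 148 ± 19.2 CPM in ++Oxtr and 176 ± 60.0 CPM in WT (SD, n = 2 each). Jun, a part of the AP-1 factor, was at 112 ± 46.6 CPM in ++Oxtr and 120 ± 13.3 CPM in WT.

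Rln1, the gene of relaxin in the mouse, had 0 counts in all 4 libraries. Rln1 (ENSMUSG00000039097) spans 29308570 to 29312070 on the minus strand of chromosome 19 in the deposited table. Its deposited length, 3501 bases, covers this whole span. With 0 counts the level can still be as high as that of 3 counts, or 0.194 and 0.200 CPM in ++Oxtr and 0.178 and 0.188 CPM in WT. Per this deposited length, the limit is 0.0563 and 0.0559 FPKM in ++Oxtr, against 0.0519 and 0.0532 FPKM in WT. The gene was thus not detected, also in WT replicate 6, where luteal markers were highest. Its neighbours in the table, Insl6 and Plgrkt, both had counts. Plgrkt, a plasminogen receptor gene, was at 43.2 and 32.1 CPM in ++Oxtr and at 34.8 and 36.5 CPM in WT.

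Rxfp1, the receptor of relaxin, had 62 and 1715 counts in ++Oxtr replicates 3 and 4, against 235 and 205 counts in WT replicates 5 and 6. The levels were 4.02 and 115 CPM in ++Oxtr and 14 and 12.9 CPM in WT. The ++Oxtr libraries were the lowest and the highest of the 4, and the WT libraries lay close together between them. The means were 59.3 ± 78.2 CPM in ++Oxtr and 13.4 ± 0.783 CPM in WT (SD, n = 2 each). The mean difference in log2(CPM + 1) was 0.74, within a spread between replicates of 2.26 (SD, pooled over the groups). Without ++Oxtr replicate 4 it was -1.52, and without ++Oxtr replicate 3 it was 3.003. The direction thus rested on which of these libraries was used. Rxfp1 (ENSMUSG00000034009) spans 79548918 to 79645187 on the minus strand of chromosome 3 in the deposited table.

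As ratios of CPM, Rxfp1 in ++Oxtr replicate 4 was 28.5 times its level in ++Oxtr replicate 3 (95% counting interval 22.1 to 37.4, exact conditional binomial). The ratio of ++Oxtr replicate 4 to WT replicate 5 was 8.19 (7.15 to 9.43), and to WT replicate 6 it was 8.90 (7.70 to 10.3). That of ++Oxtr replicate 3 to WT replicate 5 was 0.287 (0.214 to 0.382). These intervals describe the precision of the counts and do not cover the spread between libraries. Of the nearest genes on each side, 4930579G24Rik was at 5.83 and 5.48 CPM in ++Oxtr and 6.54 and 5.84 CPM in WT. Tmem144, a transmembrane protein gene, was at 3.11 and 4.07 CPM in ++Oxtr and 4.996 and 4.02 CPM in WT.

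Cell type markers differed between the same libraries. All 6 oviduct epithelium markers were lowest in ++Oxtr replicate 3, while 2 of them (Ovgp1 and Dnah5) were highest in ++Oxtr replicate 4 and the 4 others in a WT library. Ovgp1, the oviduct glycoprotein gene, was at 245 and 38566 counts in ++Oxtr and at 33194 and 9273 in WT. Smooth muscle markers were at 1832 and 4342 CPM in ++Oxtr, against 3318 and 2441 CPM in WT. All 6 of these were lowest in ++Oxtr replicate 3, and 5 were highest in ++Oxtr replicate 4. Per 1000 CPM of oviduct markers, Rxfp1 was at 20.0 and 35.2 CPM in ++Oxtr and at 5.31 and 10.5 CPM in WT. Without Ovgp1, a choice made after seeing the data, the 5 other oviduct markers summed to 185 and 676 CPM in ++Oxtr and to 660 and 646 CPM in WT. Per 1000 CPM of these, Rxfp1 was at 21.7 and 169.5 CPM in ++Oxtr and at 21.2 and 19.9 CPM in WT. Per 1000 CPM of smooth muscle markers it was at 2.19 and 26.4 CPM in ++Oxtr and at 4.21 and 5.27 CPM in WT. ++Oxtr replicate 4 was the highest library on all 3 scales, and also per markers of every other cell type listed. ++Oxtr replicate 3 was above both WT libraries per all 6 oviduct markers and below them per smooth muscle markers. Without Ovgp1 it was close to WT replicate 5, at 21.7 against 21.2 CPM, from 62 Rxfp1 counts. Follicle markers differed too, since all 9 oocyte markers were highest in ++Oxtr replicate 3 and lowest in ++Oxtr replicate 4. Granulosa markers summed to 2569 and 3845 CPM in ++Oxtr, against 2669 and 3981 CPM in WT. No marker of these lists was at 0 in any library, and the part of these cells in the Rxfp1 level was not tested.

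**Figure D3:**
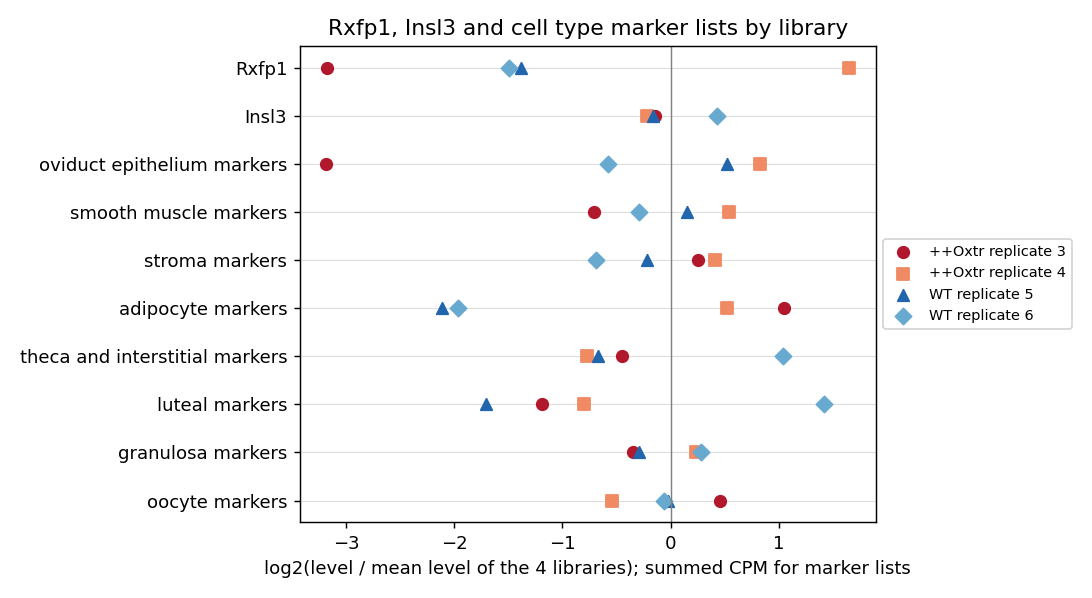
Log2 of the level in each library over the mean of the 4 libraries, for Rxfp1, Insl3 and the summed CPM of 8 marker lists, with 1 point per library. Rxfp1 and the oviduct sum are lowest in ++Oxtr replicate 3 and highest in ++Oxtr replicate 4. The oviduct sum is mostly Ovgp1 in ++Oxtr replicate 4 and WT replicate 5. Insl3 and the theca and luteal sums are highest in WT replicate 6, as are 6 of 9 theca and 7 of 7 luteal genes.

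The genes most like Rxfp1 were found by the Euclidean distance between centred log2(CPM + 1) profiles over the 4 libraries, where the median tested gene had a distance of 3.30. Genes with predicted Gm or Rik symbols, or with no symbol, were passed over. The nearest of the rest were Rab37 (0.902), Dcpp1 (0.919), Dcpp2 (1.01), Pgr (1.07) and Pitpnm3 (1.28). Rab37, a small GTPase of secretory vesicles, was at 1.94 and 35.6 CPM in ++Oxtr and at 9.10 and 4.14 CPM in WT. Pitpnm3, a phosphatidylinositol transfer protein gene, was at 7.51 and 97.3 CPM in ++Oxtr and at 40.7 and 29.0 CPM in WT. Pgr, the progesterone receptor, was at 14.3 and 211 CPM in ++Oxtr, against 74.1 and 52.0 CPM in WT. All 5 genes were lowest in ++Oxtr replicate 3 and highest in ++Oxtr replicate 4, like Rxfp1, for whose pattern they were chosen. Dcpp1 and Dcpp2, near-identical genes of secreted proteins, had no counts in ++Oxtr replicate 3 and 140 and 157 in ++Oxtr replicate 4. In WT replicates 5 and 6 there were 30 and 13 counts of Dcpp1, and 25 and 3 of Dcpp2. Reads may have been split between them. With 4 libraries such likeness is a description of these samples.

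**Figure D4:**
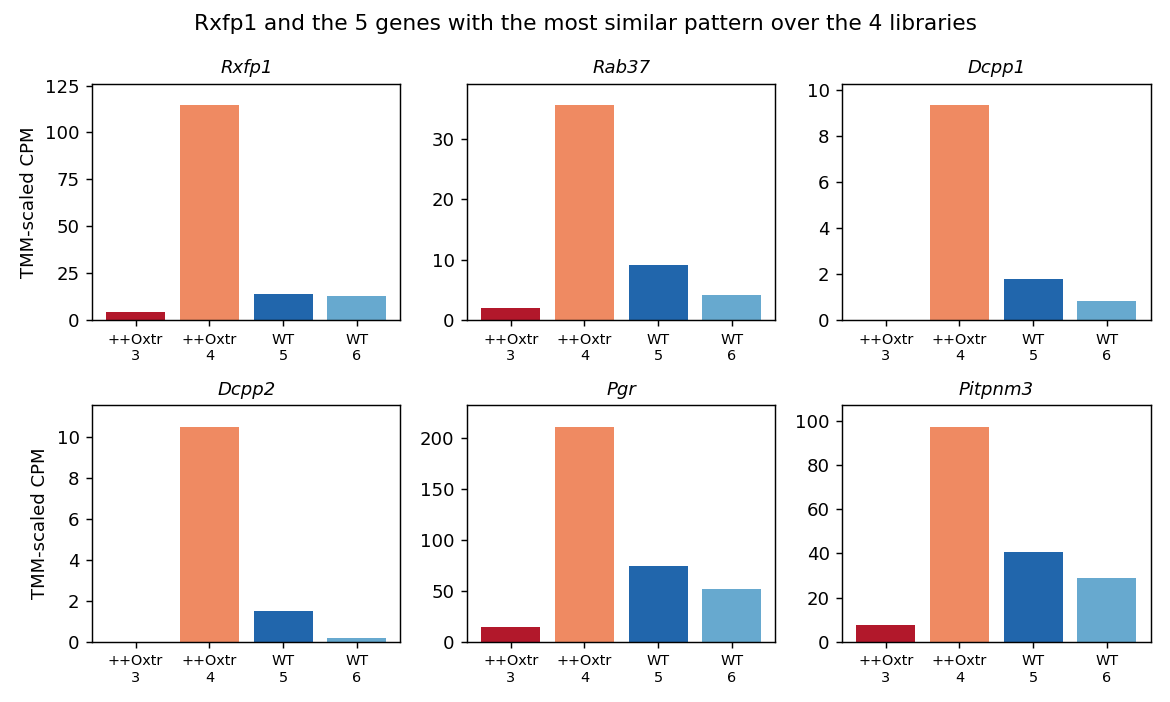
TMM-scaled CPM (vertical axes from 0) of Rxfp1 and the 5 genes with the most similar profile, predicted genes passed over, 1 bar per library. Each gene is highest in ++Oxtr replicate 4, where Rxfp1 is at 115 CPM and Pgr at 211 CPM, and lowest in ++Oxtr replicate 3. The 5 genes were chosen for their likeness to this pattern of Rxfp1.

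Rxfp2, the receptor of INSL3, had 5 and 11 counts in ++Oxtr, against 8 and 12 counts in WT. The levels were 0.324 and 0.735 CPM in ++Oxtr and 0.476 and 0.753 CPM in WT. The groups overlapped, since the lower library of each was below the higher library of the other. Summed over each group there were 16 and 20 counts, a ++Oxtr to WT ratio of 0.861 (95% interval 0.417 to 1.75, counting error only). Per length it was the lowest member with any counts, at 0.0577 and 0.126 FPKM in ++Oxtr and 0.0851 and 0.131 FPKM in WT. Rxfp2 (ENSMUSG00000053368) spans 149942140 to 150005649 on the plus strand of chromosome 5 in the deposited table. Of its neighbours, B3glct was at 41.2 and 42.7 CPM in ++Oxtr and 35.99 and 48.3 CPM in WT, and Fry at 29.3 and 32.7 CPM in ++Oxtr and 25.9 and 18.4 CPM in WT.

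The order of the members per length differed between libraries. In ++Oxtr replicate 3 and WT replicate 6 Insl3 had the highest FPKM of the 4, at 1.37 and 1.99, above Rxfp1 at 0.405 and 1.27. In ++Oxtr replicate 4 Rxfp1 was first at 11.1 FPKM. In WT replicate 5 Rxfp1 and Insl3 were close, at 1.42 and 1.36 FPKM. Rxfp2 was below both and Rln1 was last in each library. Because part of Insl3 could not be told apart from Jak3, its place in this order is uncertain.

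The other relaxin family genes were also scarce. Rln3, a brain peptide that binds RXFP3 and can activate RXFP1, had 24 and 7 counts in ++Oxtr, against 17 and 40 counts in WT. Insl6, known from testis germ cells and the neighbour of Rln1 in the table, had 25 and 14 counts in ++Oxtr and 41 and 18 in WT. For both genes the groups overlapped, and their log2 differences were -0.79 ± 0.84 and -0.48 ± 0.63 (SE), each with adjusted p = 1 by edgeR. They were the 2 of 5 such genes that passed the filter.

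Insl5, a gut hormone gene, had 1 and 0 counts in ++Oxtr and 5 and 3 counts in WT, so both WT libraries were higher. Its receptor gene Rxfp4 had 0 counts in every library. Rxfp3 had 4 and 21 counts in ++Oxtr, against 2 and 4 in WT. On the CPM scale it was at 0.259 and 1.40 in ++Oxtr and at 0.119 and 0.251 in WT, so both ++Oxtr libraries were higher, although ++Oxtr replicate 3 and WT replicate 6 had the same count. Insl5 and Rxfp3 were thus the 2 of 4 other family genes with counts whose groups did not overlap in CPM. Over the genes tested, which leave out both, 14.5% had both ++Oxtr libraries higher and 11.7% had both lower. For Insl5 the summed ++Oxtr to WT ratio was 0.135 (95% interval 0.00303 to 1.004, counting error only). Rxfp3 in ++Oxtr replicate 4 was 5.41 times its level in ++Oxtr replicate 3 (95% interval 1.83 to 21.7). None of these 3 genes was tested.

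The other genes of relaxin signalling were counted over 8 lists with 105 genes, which include the 5 family genes above. Of these, 97 passed the filter and 0 rose and 0 fell at an adjusted p under 0.05 over all genes, by edgeR's quasi-likelihood test and also by DESeq2. At an unadjusted p under 0.05 edgeR had 5 higher (5.15%) and 1 lower (1.03%), beside 2.12% and 0.451% of all genes. Both ++Oxtr libraries lay above both WT libraries for 21 genes (21.6%) and below for 4 (4.12%), beside 14.5% and 11.7% of all genes. The median log2 difference was 0.04, and it was -0.00334 over all genes tested. The 5 genes were Lgr6, Gnai1, Adcy2, Gucy1a1 and Timp2, and the lower gene was Plat; all but Lgr6 are named after their values were seen. Markers of 4 other cell types were often higher in both ++Oxtr libraries. This held for 8 of 8 adipocyte, 4 of 6 stroma, 4 of 6 mesothelium and 5 of 5 endothelium genes. None of these markers was at 0 in any library. Col1a1 is both a stroma marker and a gene of the pathway lists. The part of these cell types in the counts of list genes was not tested.

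**Figure D5:**
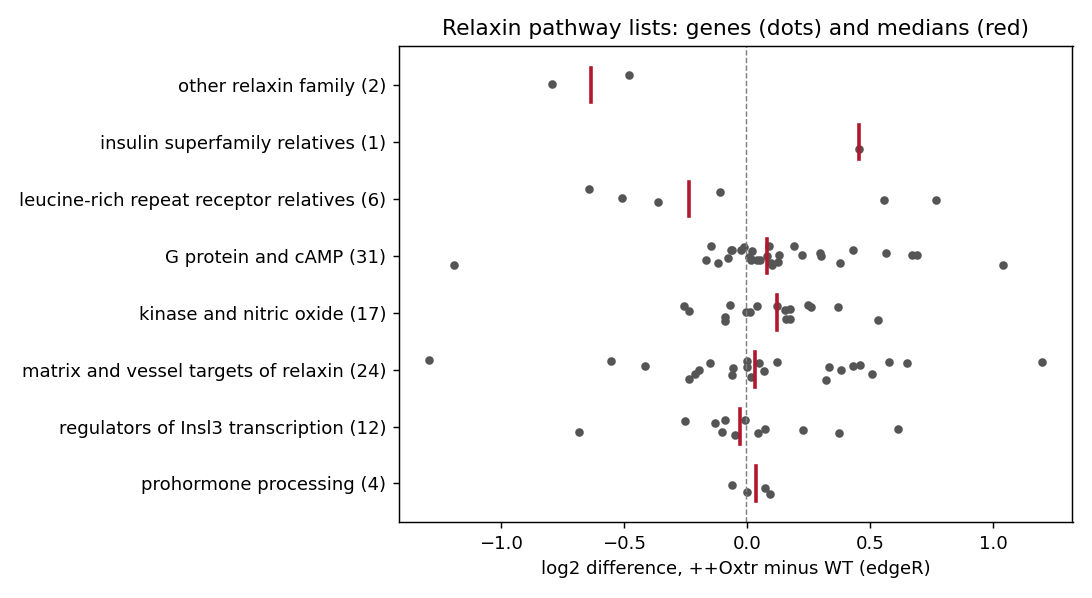
Log2 difference, ++Oxtr minus WT, of each tested gene of the 8 relaxin pathway lists (dots, number of genes in brackets), with the list median in red and the median of all genes as a dashed line. List medians lie from -0.64 (2 family genes) to 0.46 (Igf1 alone), and those of lists of at least 12 genes from -0.03 to 0.12.

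Among receptors related to RXFP1 and RXFP2 by their leucine-rich repeats, 0 of 6 passed. Lgr6, an R-spondin receptor, was at 75.8 and 115 CPM in ++Oxtr, against 55.8 and 55.9 CPM in WT. Both ++Oxtr libraries were higher, with a log2 difference of 0.77 ± 0.23 (SE), and adjusted p = 1 by edgeR's quasi-likelihood test. Lhcgr, the receptor of luteinising hormone, was at 180 ± 50.6 CPM in ++Oxtr and 281 ± 329 CPM in WT (SD, n = 2 each). Lgr4 was at 85.7 ± 18.7 CPM in ++Oxtr and 110 ± 30.2 CPM in WT. Among the insulin relatives, Igf1, a growth factor of granulosa cells in the mouse, was at 380 ± 105 CPM in ++Oxtr and 277 ± 111 CPM in WT. Igf2, a fetal growth factor gene, had 8 and 4 counts in ++Oxtr and 4 and 3 counts in WT, and Ins2, an insulin gene, had 1 count in all. Neither was tested, nor was Ins1.

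A further list holds G proteins, adenylyl cyclases, protein kinase A subunits and phosphodiesterases that act below RXFP1 and RXFP2, with Creb1, Crem and Atf1. On it 31 of 31 genes were tested and 0 passed. The median log2 difference was 0.08. In 7 of them both ++Oxtr libraries were higher (22.6%, beside 14.5% of all genes), and in 1 both were lower (3.23%, beside 11.7%). The most abundant per length was Prkar2b, a regulatory subunit of protein kinase A, at 757 ± 161 CPM in ++Oxtr and 705 ± 318 CPM in WT (SD, n = 2 each). Prkar1a was at 501 ± 23.5 CPM in ++Oxtr and 523 ± 33.7 CPM in WT, and Gnai2, an inhibitory G protein subunit, at 349 ± 54.04 CPM in ++Oxtr and 320 ± 22.1 CPM in WT. Gnai1 was at 90.7 and 83.2 CPM in ++Oxtr, against 67.2 and 66.9 CPM in WT, with a log2 difference of 0.38 ± 0.10 (SE). Adcy2 was at 16.8 and 16.3 CPM in ++Oxtr, against 9.28 and 11.2 CPM in WT.

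Among 17 kinase and nitric oxide genes, 0 passed and the median log2 difference was 0.12. Mapk3, a kinase of the ERK pathway, was at 164 ± 6.85 CPM in ++Oxtr and 148 ± 1.31 CPM in WT (SD, n = 2 each). Akt1 was at 227 ± 3.53 CPM in ++Oxtr and 238 ± 5.76 CPM in WT, and Pik3r1, a regulatory subunit of phosphoinositide kinase, at 319 ± 58.4 CPM in ++Oxtr and 376 ± 65.2 CPM in WT. Gucy1a1, a subunit of the nitric oxide receptor, was at 123 and 103 CPM in ++Oxtr, against 72.3 and 83.8 CPM in WT. Its log2 difference was 0.53 ± 0.14 (SE), with adjusted p = 1 by edgeR.

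Of 24 matrix and vessel genes known as targets of relaxin, 0 passed, with a median log2 difference of 0.03. Both ++Oxtr libraries were higher for 8 (33.3%, beside 14.5% of all genes) and lower for 2 (8.33%, beside 11.7%). Acta2, the actin of smooth muscle, was at 1344 ± 698 CPM in ++Oxtr and 1236 ± 246 CPM in WT (SD, n = 2 each). The collagen gene Col1a1 was at 1841 and 2540 CPM in ++Oxtr, against 1688 and 1252 CPM in WT, and Col3a1 at 2475 and 3136 CPM in ++Oxtr, against 2339 and 1964 CPM in WT. Timp2, an inhibitor of matrix proteases, was at 431 and 432 CPM in ++Oxtr, against 340 and 350 CPM in WT. Plat, the tissue plasminogen activator, was at 76.6 and 88.8 CPM in ++Oxtr, against 136 and 107 CPM in WT. Stroma markers summed to 4688 and 5213 CPM in ++Oxtr, against 3370 and 2429 CPM in WT over 6 genes. Col1a1 is 1 of these 6, so the sum is not independent of the matrix list. Both ++Oxtr libraries were higher for 4 of the 6 genes, beside 14.5% of all genes tested. The part of stroma in the values of the matrix list was not tested.

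For the enzymes that cut prohormones, 4 of 6 genes were tested and 0 passed, with a median log2 difference of 0.04. Cpe, a carboxypeptidase that trims hormone precursors, was at 970 ± 201 CPM in ++Oxtr and 908 ± 295 CPM in WT (SD, n = 2 each). Pcsk6 was at 79.1 ± 46.1 CPM in ++Oxtr and 75.2 ± 22.7 CPM in WT. Furin was at 121 ± 7.09 CPM in ++Oxtr and 126 ± 16.8 CPM in WT. Pcsk1 and Pcsk2, convertases of endocrine and nerve cells, had 12 counts or fewer in each library and were not tested.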

How the data were processed

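The deposited table holds, per the file headers, read counts and FPKM for each of 4 libraries and a gene length. The authors' raw counts are whole numbers, and the deposited FPKM equals the count over that length and the library total to within 0.00364%. The submitters' processing notes name the build mm10, while 2.35% of the 21850 identifiers found in GENCODE M21 (GRCm38) had the same start and end. Table positions are therefore given as deposited, and exon overlaps and sequences come from GENCODE M21 and RefSeq on GRCm38. For 97.3% of these identifiers the exon bases in GENCODE M21 equal the deposited length. The sources used here do not give the aligner, the counter or the strand setting.

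Counts were tested in edgeR 4.0.16 under R 4.3.3 by quasi-likelihood, with TMM scaling and filterByExpr (minimum count 10), which kept 15311 genes, with Benjamini-Hochberg adjustment and a threshold of 0.05. The procedure was tested on simulated data. DESeq2 1.42.0, limma 3.58.1 (voom, and log2(FPKM + 1) for a mean FPKM of at least 1), other scalings, other filters and leaving out each library were alternatives. Replicate numbers, from the titles, are not shared between groups. Levels are TMM-scaled CPM, and 95% intervals and the floor of 3 counts cover counting error only. Named genes were the members, the other family genes, the 5 nearest profiles of each member with a mean of at least 1 CPM (Rxfp1 alone), the 3 genes of each list with the highest mean FPKM where none passed, and neighbouring genes. Predicted Gm and Rik genes and genes without a symbol were passed over for the nearest profiles. The members and lists were chosen with earlier results of these data known.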

Additional observations from a re-analysis of the deposited data

How the results depend on the processing

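The count of called genes depended on the tool. edgeR called 0 higher and 0 lower, as did limma-voom, limma on log2(FPKM + 1), the other scalings and the other filters, while DESeq2 called 67 higher and 3 lower. With each library left out in turn, edgeR called 0 to 7 higher and 0 to 58 lower, the largest counts being those without ++Oxtr replicate 4, where the lone ++Oxtr library was assumed to vary like the WT libraries. Of the pathway lists, 0 genes were called in either direction under every alternative run on all 4 libraries. The mean difference of Rxfp1 in log2(CPM + 1) was 0.74, between 0.68 and 0.82 under other scalings, units and pseudocounts, and between -1.52 (without ++Oxtr replicate 4) and 3.003 with 1 library left out. That of Rxfp2, -0.09, was 0.11 without ++Oxtr replicate 3, 0.04 without WT replicate 6 and -0.28 without ++Oxtr replicate 4. That of Insl3, -0.16, stayed negative, from -0.31 (without WT replicate 5) to -0.01 (without WT replicate 6). The cause was not tested. No paired analysis was possible because the groups share no replicate number. Insl3 and Rxfp2 had few counts, and their counting intervals of the ++Oxtr to WT ratio include 1. For Insl3 the exon shared with Jak3 is a further limit. The 2 libraries per group limit every gene, Rxfp1 included.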

Other observations

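The deposited annotation gives the KEGG relaxin signalling pathway to 129 genes, the 4 members among them, and 53 of these genes are on the lists above. It was looked at after the data were seen. Of the 125 other genes 117 were tested, and edgeR called 0 in either direction, with 5 higher (4.27%) and 0 lower at p under 0.05 before adjustment, beside 2.12% and 0.451% of all genes. Both ++Oxtr libraries lay above both WT libraries for 27 of them (23.1%, beside 14.5% of all genes) and below for 9 (7.69%, beside 11.7%). DESeq2 called 1 of them higher and 0 lower, beside 0.396% and 0.0177% of all genes. This was Col4a4, a chain of basement membrane collagen, which was at 129 and 132 CPM in ++Oxtr, against 81.7 and 81.9 CPM in WT. Its log2 difference was 0.67 ± 0.09 (SE), higher in both ++Oxtr libraries, with an adjusted p of 0.0018 in DESeq2 and 0.723 in edgeR. Shc3, an adaptor protein gene, was at 1.49 and 1.14 CPM in ++Oxtr, against 0.357 and 0.377 CPM in WT, with adjusted p = 1 by edgeR. Mapk9, a stress kinase gene, was at 110 and 113 CPM in ++Oxtr, against 88.0 and 93.2 CPM in WT.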
